A study of Mus musculus with 2 samples.

Results

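Aerocytes (aCap), the capillary endothelial cells (ECs) of the lung alveolus that are specialized for gas exchange, were examined in 2 single-cell libraries of sorted mouse lung cells. They were chosen by measured counts of unique molecular identifiers (UMIs, one per captured RNA molecule). A cell had to hold 1000 to 5000 detected genes, under 20% mitochondrial UMIs and at least 0.5% of its UMIs on Malat1, a nuclear RNA. It also had to hold at least 2 UMIs of Pecam1+Cdh5, which mark ECs, at least 4 UMIs of Ednrb+Fibin+Apln and at least 1 UMI of Car4. The rule found 2605 aerocytes among 15029 ECs and 15210 cells that met the limits on genes, mitochondrial UMIs and Malat1. Of these, 1551 came from the control library and 1054 from the library of lungs that had received melanoma cells. The other ECs, here called the remaining ECs, numbered 6370 and 6054.

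The alveolar capillary net is built from general capillary cells (gCap), which can divide and renew the net, and from aerocytes, which are large, thin, branched cells that lie against the alveolar epithelium. Aerocytes carry Car4, a membrane-bound carbonic anhydrase that helps to move carbon dioxide, and Ednrb, an endothelin receptor. They also make Apln, a secreted peptide whose receptor, Aplnr, is found on general capillary cells, so ligand and receptor lie on neighboring cell types.

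Both libraries came from lungs of wild-type C57BL/6 mice, which per the study's methods were males of 8 to 10 weeks. Control mice received 100 µl of phosphate-buffered saline (PBS) into the tail vein. The others received 400000 B16-F10 cells, a mouse skin melanoma line, in the same volume, and lungs were taken after 6 h. Cells stained for Pecam1 and not for Ptprc, an antigen of blood cells, were sorted, together with dye-labeled melanoma cells from the injected lungs. Mice of a group were pooled into 1 library (the labels give 2 mice per treatment, the methods 3 per sample), so the groups have no replicates and single mice cannot be told apart. Accordingly no p-values are given, and every interval is a 95% interval that covers counting error only.

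The libraries held 85794655 (control) and 104978816 (B16-F10) UMIs, of which the aerocytes contributed 14995842 and 12411953. An aerocyte held a median of 9718 UMIs and 3513 genes in the control library and of 11704 UMIs and 3963 genes in the B16-F10 library, so the B16-F10 cells were the deeper set. Their median mitochondrial share was 2.08%, against 1.71% in control. No aerocyte barcode occurred in both libraries. The share of free RNA in aerocyte UMIs, estimated against near-empty droplets, was 0.965% and 1.04% from alveolar type 2 transcripts and 1.12% and 1.89% from red-cell transcripts. The larger estimate is used below unless stated otherwise, and it is an upper one, since in the B16-F10 library it would supply 143 CPM of the type 2 markers, of which the aerocytes held 94.1 CPM. CPM are the UMIs of a gene summed over the cells and scaled to 1000000 UMIs in all. A doublet caller set to the kit guideline rate marked 108 of the control and 70 of the B16-F10 aerocytes.

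The cells did not split cleanly at the limit of the rule. In the control library 65 aerocytes had exactly 4 UMIs of Ednrb+Fibin+Apln and 93 ECs had 3, of which 73 also had Car4. In the B16-F10 library these numbers were 34, 92 and 68. Most members lay far above the limit, and 82.1% and 85.9% of them had 10 or more such UMIs. A further 27 and 28 ECs had at least 4 UMIs of these genes but no Car4.

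Genes that the rule did not use followed the same gradient. In the control library Rprml, a small membrane protein of the reprimo family, was at 0.996 CPM in ECs without any UMI of the 3 genes. It was at 34.5 CPM in cells with 6 to 9 such UMIs and at 114 CPM in cells with 40 or more. In the B16-F10 library the same bins stood at 1.06, 36.4 and 150.1 CPM. Tbx2, a T-box transcription factor, stood at 12.6 CPM in the lowest and 631 CPM in the highest bin of the control library and at 18.1 and 773 CPM in the B16-F10 library. Plvap, which forms the diaphragms of endothelial caveolae, and Kit, the stem cell factor receptor, ran the other way, from 1219 to 56.5 CPM and from 783 to 20.8 CPM in control. ECs with 4 to 5 UMIs still held 584 CPM of Plvap and 435 CPM of Kit in control, and 909 and 521 CPM in the B16-F10 library. In sum, the cells with 4 to 5 such UMIs thus held transcripts of both capillary types. Of these cells, 115 of 129 in control and 57 of 78 in the B16-F10 library also had Car4. Over all members, leaving out those with 4 or more UMIs of Gpihbp1+Plvap+Kit kept 1184 of 1551 control and 710 of 1054 B16-F10 aerocytes. Some single members thus held UMIs of both sets of genes. How they came by them was not tested.

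**Figure D1:**
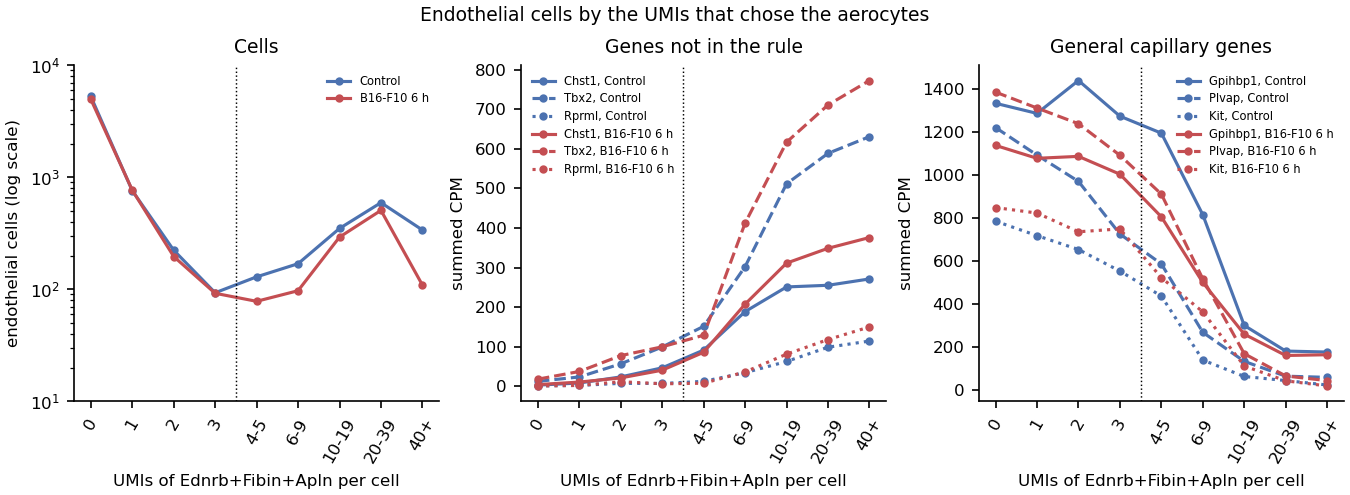
Number of ECs (log axis) and summed CPM of aerocyte genes outside the rule and of general capillary genes, in bins of the Ednrb+Fibin+Apln UMIs per cell, control in blue and B16-F10 in red. The dotted line marks the limit of 4 UMIs. Tbx2 reaches 631 CPM (control) and 773 CPM (B16-F10) in the highest bin, where Plvap is at 56.5 and 41.3 CPM.

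Aerocytes made up 19.6% of control ECs (exact interval 18.7 to 20.5%) and 14.8% of B16-F10 ECs (14.0 to 15.7%), a difference of -4.75 percentage points (-5.95 to -3.55). Since Ednrb, Fibin and Car4 were themselves lower in the B16-F10 aerocytes, the cells were also chosen by 8 other aerocyte genes. This gave 1571 and 1083 cells. Among the 8, Pde8b (log2 ratio B16-F10 over control -0.82) and Rgs6 (-0.26) were lower too, and Chst1 (0.38) and Rprml (0.19) higher. That choice thus also rested on genes that moved. Over the 12 alternatives that changed which cells were counted, the difference ranged from -5.45 to -3.79 points. Fewer aerocytes, more of the other ECs and unequal recovery in the sort cannot be told apart.

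The label was checked against Rprml and Chst1, the markers that did not enter the rule. Rprml stood at 89 against 1.5 CPM in aerocytes and the remaining ECs of the control library, and at 101 against 1.73 CPM in the B16-F10 library. Chst1, a carbohydrate sulfotransferase, stood at 249 against 5.19 CPM and at 323 against 6.56 CPM. Both markers were far higher in the chosen cells of each library. The genes of the rule were higher by construction. Car4 (chr11:84957786-84966044, plus strand, mm10) stood at 2233 against 158 CPM in control, Ednrb (chr14:103814625-103844402, minus strand) at 1354 against 19.7 CPM, Fibin (chr2:110360917-110363183, minus strand), a secreted protein, at 1296 against 11.5 CPM, and Apln (chrX:48025146-48034853, minus strand) at 135 against 3.23 CPM.

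Of 13486 genes that held 50 UMIs or more in the control sums, 809 (6%) were at least 2-fold higher in aerocytes than in the remaining ECs and 1944 (14.4%) at least 2-fold lower. The aerocyte identity list holds 46 aCap markers that the study chose partly on these libraries, without the genes of the rule. All 46 were at least 2-fold higher in control, with a median log2 ratio of 3.99, and the median was 3.67 in the B16-F10 library. This repeats how the cells and the list were chosen and is no separate evidence. Among the 20 largest ratios outside the rule were those of Ccdc184 and of Rgs6, a brake on G protein signaling, which stood at 802 against 16.1 CPM. Egflam, a matrix protein, stood at 258 against 6.9 CPM, and Il1a, the cytokine interleukin-1 alpha, at 17.1 against 0.284 CPM. Emp2, a membrane protein that is abundant in thin alveolar cells, stood at 2823 against 181 CPM. On the other side, 49 of the 50 genes of the study's gCap list were at least 2-fold lower in control aerocytes, with a median of -2.81. Gpihbp1, which anchors lipoprotein lipase in capillaries, stood at 295 against 1326 CPM and Aplnr at 9.07 against 65.6 CPM. The lowest ratios included Adgrg6, an adhesion receptor, at 2.93 against 91.5 CPM, and Mgp, a matrix protein that limits calcification, at 8.0 against 185 CPM.

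The members were not uniform. Those with fewer than 4 UMIs of Gpihbp1+Plvap+Kit numbered 1184 of 1551 in control and 710 of 1054 in the B16-F10 library, where cells were deeper. The other members held more UMIs of these general capillary genes. Besides, 2 small subsets, defined by other genes, went against the label. They were defined after the values had been seen and are given as descriptions. In 78 control aerocytes (5.03%) and 75 B16-F10 aerocytes (7.12%) under 0.6% of the UMIs fell on the identity list, which took a median of 0.122 and 0.117% in the remaining ECs. These members had a median of 5 and 6 UMIs of Ednrb+Fibin+Apln, and their Plvap stood at 808 and 1160 CPM. Their Ccl21a, a lymphatic marker, stood at 718 and 425 CPM, against 172 and 259 CPM in the remaining ECs. The other subset held 20 or more UMIs of Fabp4, a fatty acid binding protein, and numbered 38 control (2.45%) and 5 B16-F10 (0.474%) members, 19 and 2 of which were also poor in the identity genes. They held 40270 and 37390 CPM of Fabp4, 905 and 106 CPM of Timp4 and 1310 and 709 CPM of Cdh13. The members in neither subset are called core members and numbered 1454 (93.8%) and 976 (92.6%). Their median share of UMIs on the identity list was 1.66 and 1.5%, and their Plvap stood at 66.2 and 72.9 CPM. The limit of 0.6% had 26 and 9 members close to it, between 0.5 and 0.7%.

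The upper limit of 5000 genes left out 156 control and 250 B16-F10 ECs that met the gene rule for aerocytes, with a median of 21520 and 22230 UMIs. Their melanocyte marker sum was 46 and 186 CPM, against 44 and 67.8 CPM in the members.

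Marker sums of other cell types ranged widely in the aerocytes, and several moved with the group. General capillary markers summed to 3100 and 2859 CPM in control and B16-F10 aerocytes, against 9833 and 8331 CPM in the remaining ECs. The 8 melanocyte markers summed to 44 and 67.8 CPM in control and B16-F10 aerocytes. In control, Pmel held 0.6, Mlana 0.133 and Dct 0.0667 CPM, so most of that sum lay in other markers of the list. In B16-F10 aerocytes Pmel held 7.33, Mlana 4.59 and Dct 14.7 CPM. Tyrp1, Sox10 and Slc45a2 were at 0 in control, all 8 were detected in B16-F10 aerocytes, and free RNA would supply 0.168 and 16.9 CPM. Mural cell markers summed to 17.3 and 37.5 CPM, fibroblast markers to 6.07 and 16.4 CPM and platelet markers to 80.7 and 53.8 CPM. Myeloid markers summed to 38.7 and 43.8 CPM, with Mpo at 0 in both libraries, and lymphoid markers to 1.87 and 5.64 CPM, with Cd3e at 0 in control. Red-cell transcripts summed to 1789 and 976 CPM, of which free RNA would supply 641 and 829.6 CPM. Arterial markers summed to 63.1 and 51.2 CPM (Gkn3 and Dkk2 at 0 in the B16-F10 library), venous markers to 73.5 and 94.1 CPM and lymphatic markers to 509 and 606 CPM. Type 2 epithelial markers summed to 111 and 94.1 CPM, and type 1 epithelial markers, some of which aerocytes express, to 2933 and 2532 CPM. Leaving out every member with a UMI of a defining platelet, mural, myeloid, melanoma or lymphatic marker kept 1335 control and 604 B16-F10 members. Beyond the values given with and without such cells, their part in the results was not tested.

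To ask how aerocytes differed after melanoma cells had reached the lung, UMIs were summed over the aerocytes of each library and compared for the 11489 genes whose sums together held 50 UMIs or more. A gene was called higher or lower when its CPM differed at least 2-fold, a log2 ratio (B16-F10 over control) of at least 1 or at most -1. By this rule 250 genes were higher (2.18%) and 292 lower (2.54%), and the median log2 ratio of all genes was 0.00. In the core members 226 of 11258 genes were higher (2.01%) and 248 lower (2.2%). Counting intervals left out 0 for 27.5% of the genes on the higher and 28.4% on the lower side, so an interval clear of 0 says little about a treatment here. In such sums, fewer cells with a transcript and less RNA per cell cannot be told apart.

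**Figure D2:**
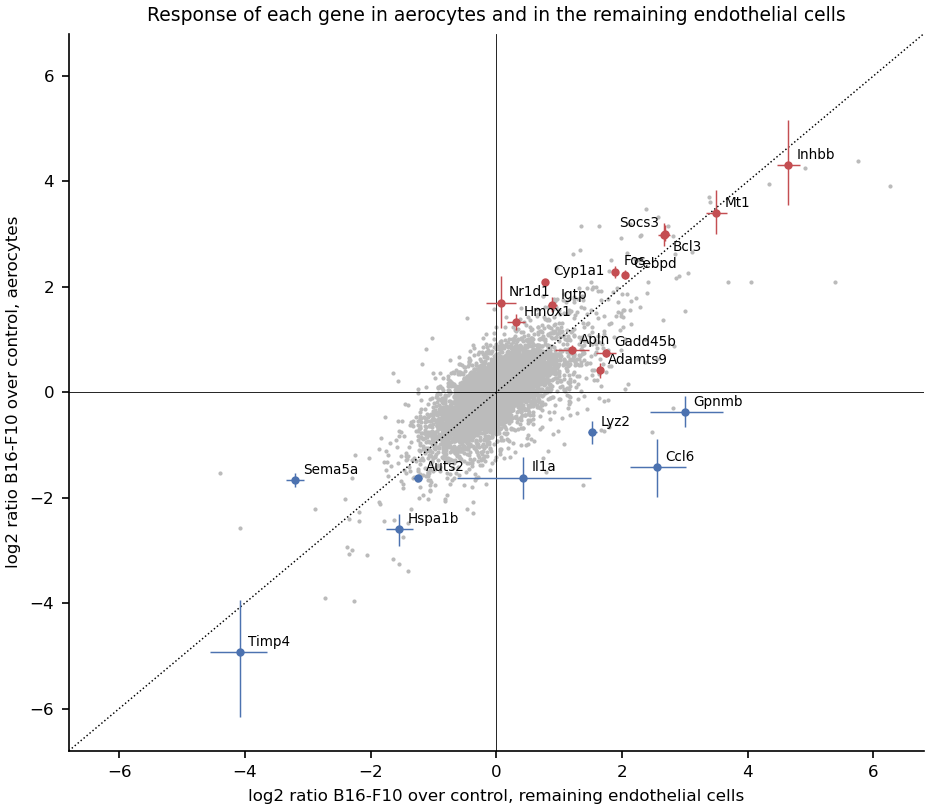
Log2 ratio of summed CPM, B16-F10 over control, of each gene in the remaining ECs (horizontal axis) and in aerocytes (vertical axis), with 95% counting intervals for labeled genes and a dotted line of equal ratios. Cyp1a1 lies above the line (2.10 in aerocytes and 0.78 in the remaining ECs) and Adamts9 below it (0.42 and 1.65).

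Cyp1a1, a cytochrome P450 enzyme that oxidizes aromatic compounds and is the classic target gene of the aryl hydrocarbon receptor, was among the genes whose ratio in aerocytes most exceeded that in the remaining ECs. It stood at 246 CPM in control aerocytes (3691 UMIs) and at 1052 CPM in B16-F10 aerocytes (13055 UMIs), a log2 ratio of 2.10 (2.04 to 2.15). In the remaining ECs it stood at 92.4 and 159 CPM, a log2 ratio of 0.78, and the difference of the ratios was 1.31 (1.24 to 1.39). The gene lies at chr9:57687928-57703824, plus strand (mm10). It stood at 257 and 1112 CPM in the core members, and its log2 ratio lay between 1.79 and 2.33 over the alternatives. The other genes of this pathway were looked up after these values had been seen. The receptor Ahr stood at 305 and 215 CPM in control and B16-F10 aerocytes, Tiparp, which limits the receptor, at 21.2 and 32.2 CPM, and Nqo1, a quinone reductase, at 79.1 and 162 CPM. Cyp1b1 had 3 and 1 UMIs.

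To show the letters in front of genes described here, the 250 bases before the start site are printed for 5 of them. Of these, Icam1 did not reach a 2-fold difference. Each of the 5 held a motif that was looked for, and some promoters read that lacked theirs are named below. The letters come from RefSeq on GRCm38.p6 (the assembly of mm10), on the strand of the gene. In Cyp1a1 (chr9:57697363-57697612, plus strand) the capitals mark the core of the aryl hydrocarbon receptor element, GCGTG, at positions -54 to -50 from the start site. This RefSeq start lies inside the gene span given above, which came from GENCODE and begins further upstream.
Cyp1a1: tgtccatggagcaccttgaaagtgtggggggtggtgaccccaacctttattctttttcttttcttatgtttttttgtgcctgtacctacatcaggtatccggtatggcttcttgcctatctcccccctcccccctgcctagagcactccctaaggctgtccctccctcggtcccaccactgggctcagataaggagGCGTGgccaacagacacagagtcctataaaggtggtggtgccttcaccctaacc
GCGTG on either strand occurred in 28.2% of all 27025 promoters read and in 46.7% of those of 8907 genes tested in aerocytes, so its presence is common. Among the 184 promoters of higher genes it occurred in 39.7% and among the 168 of lower genes in 30.4%. A match describes letters and not binding.

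Through JAK-STAT signaling, cytokine receptors act on transcription. Of 33 genes of this pathway measured, 10 were at least 2-fold higher and none at least 2-fold lower. The shares over all genes tested were 2.18% and 2.54%. The median log2 ratio was 0.52 in aerocytes and 0.55 in the remaining ECs. Socs3, which inhibits cytokine receptor signaling, stood at 25.7 and 207 CPM in control and B16-F10 aerocytes, a log2 ratio of 3.01 (2.86 to 3.17). Bcl3, a nuclear partner of NF-kB p50 and p52, stood at 13.2 and 105 CPM (2.99, 2.78 to 3.22). The remaining ECs gave 2.69 and 2.67 for the pair. Cebpd, a transcription factor of the acute phase, stood at 111 and 522 CPM (2.23), and the kinase Pim3 at 78.4 and 227 CPM (1.53, against 1.93 in the remaining ECs). Osmr, the oncostatin M receptor, stood at 18.9 and 51 CPM (1.43), and Socs2, another inhibitor of the pathway, at 29.6 and 72.6 CPM (1.29, against 0.29). The kinase Jak2 stood at 51.4 and 44.2 CPM (-0.22), where the remaining ECs gave 0.62. Myc, a growth regulator, had no UMI in control aerocytes and 60 in B16-F10 aerocytes, a log2 ratio of at least 4.59 against a floor of 3 UMIs, and 60% of these UMIs lay in members poor in the identity genes.

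The promoter of Socs3 (chr11:117969367-117969616, minus strand) holds a gamma-activated sequence (GAS, TTCNNNGAA), the element that STAT dimers bind, at positions -154 to -146, shown in capitals. It is printed beside that of Icam1 (chr9:21015690-21015939, plus strand), a leukocyte adhesion molecule, which has a GAS at -42 to -34.
Socs3: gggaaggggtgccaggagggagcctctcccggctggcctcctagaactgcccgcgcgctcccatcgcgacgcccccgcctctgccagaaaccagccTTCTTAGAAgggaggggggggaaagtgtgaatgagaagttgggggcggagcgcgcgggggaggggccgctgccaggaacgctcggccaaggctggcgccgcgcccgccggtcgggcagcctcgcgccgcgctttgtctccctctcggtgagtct
Icam1: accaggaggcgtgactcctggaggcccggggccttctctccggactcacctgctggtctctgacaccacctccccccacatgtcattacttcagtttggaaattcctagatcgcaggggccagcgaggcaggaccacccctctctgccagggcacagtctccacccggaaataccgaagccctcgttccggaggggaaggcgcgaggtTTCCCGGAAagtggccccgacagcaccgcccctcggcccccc
The GAS pattern reads the same on both strands. It occurred in 7.18% of all promoters, in 5.93% of those of genes tested in aerocytes, in 8.7% of those of higher genes and in 2.98% of those of lower genes.

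The reactive capillary (rCap) list holds 44 markers that the study named for capillary cells found after melanoma injection, chosen partly on these libraries, so its direction here is no independent evidence. In aerocytes 25 of 43 members measured were at least 2-fold higher and none at least 2-fold lower, against 2.18% and 2.54% of all genes tested. The median log2 ratio was 1.19 in aerocytes and 1.37 in the remaining ECs. In the core members the median was 1.01, and 20 of 39 were at least 2-fold higher. Inhbb, a subunit of activin B, had 15 and 247 UMIs in control and B16-F10 aerocytes (1 and 19.9 CPM, log2 ratio 4.31), 58.7% of the latter in members poor in the identity genes, and it stood at 125 CPM in the remaining B16-F10 ECs. Tmem252, a membrane protein, stood at 4.54 and 35.3 CPM (2.96), with 47.3% of the B16-F10 UMIs in such members. Adamts9, a secreted protease, stood at 56.8 and 75.9 CPM in aerocytes (0.42) and at 122 and 383 CPM in the remaining ECs (1.65), and its log2 ratio was 0.04 in the core members and -0.29 without members holding 4 or more UMIs of Gpihbp1+Plvap+Kit. Scarb1, the scavenger receptor for high-density lipoprotein, stood at 125 and 178 CPM (0.51, against 1.34). Pfkfb3, which drives glycolysis, stood at 29.6 and 87 CPM (1.56, against 2.01).

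Genes of NF-kB signaling and leukocyte adhesion were mostly higher. Of 16 members measured, 9 were at least 2-fold higher and none at least 2-fold lower, against 2.18% and 2.54% of all genes tested. The median log2 ratio was 1.27 in aerocytes, 1.36 in the core members and 1.06 in the remaining ECs. Nfkbie, an inhibitor of the pathway, stood at 5.67 and 22.6 CPM (2.00) and the feedback enzyme Tnfaip3 at 9.0 and 31.4 CPM (1.80). The subunits Relb and Nfkb2 stood at 19.2 and 64.7 CPM (1.75) and at 13.3 and 44.8 CPM (1.76), and Nfkb1 at 158 CPM in both libraries (0.00). Icam1 was plentiful in aerocytes of the control library, at 359 against 131 CPM in the remaining ECs, and stood at 645 CPM in B16-F10 aerocytes (0.85, against 0.84 in the remaining ECs). Vcam1, another adhesion molecule, was near the limit of detection in aerocytes, at 1.73 and 6.28 CPM, against 49.4 and 104 CPM in the remaining ECs.

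Cxcl10, a chemokine that draws T cells, had 3 and 1016 UMIs in control and B16-F10 aerocytes (0.20 and 81.9 CPM, log2 ratio 8.68, 7.13 to 10.96). The 10 richest B16-F10 aerocytes held 88% of its UMIs, so the sum rested on few cells. Its promoter (chr5:92348890-92349139, minus strand) is printed next to that of Igtp (chr11:58199306-58199555, plus strand), an interferon-induced GTPase. Capitals mark the interferon-stimulated response element (ISRE) and the kappaB consensus in Cxcl10, and the GAS and ISRE in Igtp.
Cxcl10: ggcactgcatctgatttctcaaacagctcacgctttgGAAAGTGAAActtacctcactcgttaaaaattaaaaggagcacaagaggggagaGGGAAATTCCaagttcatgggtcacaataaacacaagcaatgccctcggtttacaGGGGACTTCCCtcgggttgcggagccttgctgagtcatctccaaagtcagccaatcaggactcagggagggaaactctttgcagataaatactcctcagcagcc
Igtp: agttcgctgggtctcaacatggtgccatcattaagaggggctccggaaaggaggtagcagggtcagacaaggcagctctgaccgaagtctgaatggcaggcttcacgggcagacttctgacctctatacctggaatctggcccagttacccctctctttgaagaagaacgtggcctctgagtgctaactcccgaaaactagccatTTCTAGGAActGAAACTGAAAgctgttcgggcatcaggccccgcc
In Cxcl10 the ISRE lies at positions -213 to -204 and the kappaB letters at -159 to -150, at -104 to -95 and, overlapping these, at -103 to -94. In Igtp the GAS lies at -45 to -37 and the ISRE at -34 to -25. The ISRE, on either strand, occurred in 3.04% of all promoters, 2.61% of those of genes tested and 47.5% of 40 on the interferon list. The kappaB letters occurred in 7.01% of all promoters, 8.57% of those of genes tested, 19% of those of higher genes, 9.52% of those of lower genes and 52.4% of 21 on the adhesion and NF-kB list.

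Interferon-stimulated genes differed among themselves. The study's interferon list holds 50 genes, all measured, and was drawn partly from these libraries. Of these, 35 were higher and 8 lower beyond counting error, against 27.5% and 28.4% of all genes tested. At least 2-fold, 7 were higher and 1 lower, against 2.18% and 2.54% of all genes tested. In the core members 10 of 50 were at least 2-fold higher and 1 lower, against 2.01% and 2.2% of all genes there. The median log2 ratio was 0.40 in aerocytes and 0.14 in the remaining ECs. Its largest ratios belonged to GTPases that interferon gamma induces. Igtp stood at 37.3 and 118 CPM (log2 ratio 1.66, 1.52 to 1.80), against 0.89 in the remaining ECs. Gbp6 stood at 15.6 and 48 CPM (1.62, against 0.77) and Ifi47 at 47.6 and 129 CPM (1.44, against 0.64). Tgtp2, of the same GTPase group, stood at 15.3 and 41 CPM (1.42) and in the remaining ECs at 34.5 and 38.1 CPM (0.15). Ifit1, Usp18 and Irf7, well-known genes of the type I response, stood at 33.1 and 42.5 CPM (0.36), 23.7 and 25.1 CPM (0.08) and 11.9 and 13.9 CPM (0.22), and Ifi206 at 15.8 and 7.25 CPM (-1.12). These last genes were named after their values were seen. Type I and gamma responses were not tested against each other.

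Of 20 genes of antigen presentation, 18 were higher beyond counting error and none lower, against 27.5% and 28.4% of all genes tested. At least 2-fold higher were 5, against 2.18% of all genes tested. The median was 0.60, against 0.53 in the remaining ECs. The peptide transporter Tap1 stood at 59.2 and 123 CPM (1.06). The class I genes H2-Q7 and H2-Q6, close copies whose reads may be split uncertainly, stood at 172 and 349.7 CPM (1.03) and 69.6 and 141 CPM (1.02). The class II gene H2-Aa stood at 5.0 and 10.7 CPM (1.10), with 51.1% of the B16-F10 UMIs in members poor in the identity genes. In the core members 3 of 20 genes of the list were at least 2-fold higher, and H2-Aa gave 0.82 there and 0.66 without cells holding markers of other types. With cells thinned to 2000 UMIs before selection Tap1 gave 0.93, H2-Q7 0.90 and H2-Q6 0.77, so none of the 4 named genes stayed 2-fold higher under every alternative.

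**Figure D3:**
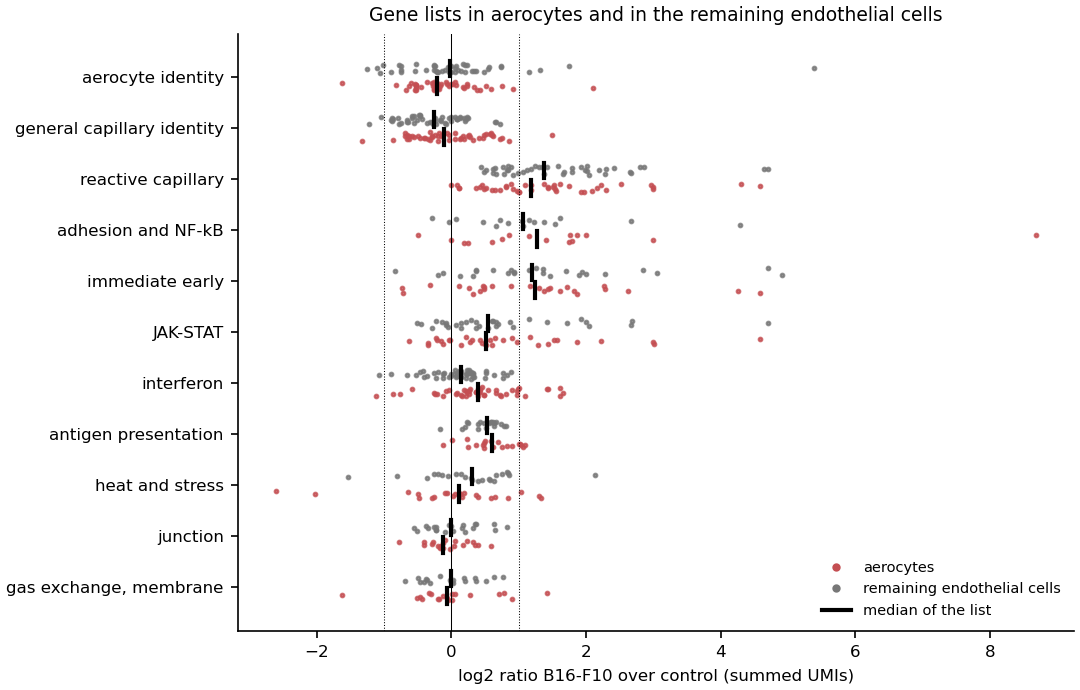
Log2 ratio, B16-F10 over control, of each measured gene of 11 lists in aerocytes (red) and in the remaining ECs (gray), with the list median as a black bar and dotted lines at the 2-fold limits. The adhesion and NF-kB list has medians of 1.27 and 1.06, the interferon list of 0.40 and 0.14 and the aerocyte identity list of -0.20 and -0.02.

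Immediate early genes, which are transcribed within minutes of a stimulus, were mostly higher. Of 26 measured, 14 were at least 2-fold higher and none at least 2-fold lower, against 2.18% and 2.54% of all genes tested. The median log2 ratio was 1.24, against 1.20 in the remaining ECs. Fos, a subunit of the AP-1 factor, stood at 51.2 and 249.8 CPM (2.29, 2.17 to 2.40), the stress factor Atf3 at 7.4 and 45.6 CPM (2.62) and Fosl1, also of AP-1, at 0.80 and 15.3 CPM (4.26). Junb stood at 155 and 567 CPM (1.87), and Klf10 at 165 and 101 CPM (-0.71). Such genes are also known to respond to the enzymatic digestion of tissue, which both groups underwent.

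The heat and stress list had a median of 0.12 in aerocytes and 0.31 in the remaining ECs. Of 23 members measured, 3 were at least 2-fold higher and 2 at least 2-fold lower, against 2.18% and 2.54% of all genes tested. The inducible chaperone Hspa1b stood at 52.4 and 8.62 CPM (log2 ratio -2.60, -2.91 to -2.31) and Hspa1a at 36.3 and 8.94 CPM (-2.02). They are near-identical copies, so the split of reads between them is uncertain. The remaining ECs gave -1.54 and -0.81. Hmox1, which breaks down heme, stood at 36.9 and 93.1 CPM (1.33, 1.19 to 1.48), against 0.31 in the remaining ECs, and Gdf15, a stress-induced secreted factor, at 36.9 and 90.8 CPM (1.30, against 2.14). These chaperones thus stood lower in B16-F10 aerocytes, and Hmox1 and Gdf15 higher.

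On the metal and nutrient list, 5 of 17 genes were at least 2-fold higher and none at least 2-fold lower. The shares over all genes tested were 2.18% and 2.54%. The median of the list was 0.87, against 0.83 in the remaining ECs. The metal-binding Mt1 stood at 3.67 and 38.8 CPM (3.40) and Mt2 at 0.934 and 12.3 CPM (3.71). The 10 richest cells held 47.6% of the B16-F10 UMIs of Mt1 and 55.3% of those of Mt2, which had 14 UMIs in control. Slc7a11, the cystine transporter, had 15 and 125 UMIs (3.33), but its 10 richest cells held 79.2% of the B16-F10 ones. Ftl1, a ferritin chain, stood at 1542 and 2823 CPM (0.87).

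Among genes of coagulation and fibrinolysis, 2 of 15 were at least 2-fold higher and none at least 2-fold lower. The shares over all genes tested were 2.18% and 2.54%. The median of the list was 0.38, against 0.47 in the remaining ECs. Procr, the receptor of activated protein C, stood at 1.87 and 6.2 CPM (1.73). Plat, tissue plasminogen activator, stood at 11.7 and 21.8 CPM (0.90, against -0.10). Plau and Plaur, urokinase and its receptor, gave 0.63 and 0.38 in aerocytes against 2.25 and 1.63. Thbd, thrombomodulin, which turns thrombin toward anticoagulation, stood at 874 and 641 CPM (-0.45).

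The identity genes of the aerocytes were slightly lower on balance. Their median log2 ratio was -0.20 (medians of the bounds -0.27 and -0.13), and the remaining ECs gave -0.02. Of 46, 13 were higher and 27 lower beyond counting error, against 27.5% and 28.4% of all genes tested. Auts2 was the member at least 2-fold lower. Of the genes of the rule, Car4 stood at 2233 and 1818 CPM (-0.30, -0.32 to -0.27), Ednrb at 1354 and 1008 CPM (-0.42) and Fibin at 1296 and 715 CPM (-0.86), while Apln stood at 135 and 236 CPM (0.80, 0.72 to 0.89). Since these genes chose the cells, their values are descriptions. Outside the rule Rprml (0.19), Chst1 (0.38) and Ccdc184 (69.7 and 132 CPM, 0.92) stood higher. Auts2, a regulator of transcription, stood at 861 and 279 CPM (-1.62, -1.68 to -1.57), against -1.25 in the remaining ECs, the phosphodiesterase Pde8b at 451 and 256 CPM (-0.82), the monocarboxylate transporter Slc5a12 at 58.6 and 29.9 CPM (-0.97), and Il1a at 17.1 and 5.56 CPM (-1.62, -2.02 to -1.23). The list thus held members in both directions.

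The 50 gCap genes had a median of -0.11 in aerocytes and -0.26 in the remaining ECs. Pxdc1 stood at 26.7 and 75.2 CPM (1.49), Adgrl3, an adhesion receptor, at 922 and 366 CPM (-1.33, and -0.97 with no upper limit on genes), and Ccdc85a at 343 and 189 CPM (-0.86). Gna14, a G protein subunit, stood at 11.5 and 20.9 CPM (0.86), with 63.3% of the B16-F10 UMIs in members poor in the identity genes and a log2 ratio of 0.47 in the core members. Plvap gave 0.49 over all members and 0.14 in the core members.

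Of 22 receptors and ligands of the alveolar capillary measured, 6 were higher and 12 lower beyond counting error. Over all genes tested these shares were 27.5% and 28.4%. At least 2-fold lower was 1, against 2.54% of all genes tested. The median of the list was -0.12, against -0.29 in the remaining ECs. Calcrl, the receptor of adrenomedullin, stood at 4652 and 3052 CPM (-0.61, -0.63 to -0.59), and its partner Ramp2 at 3687 and 2784 CPM (-0.41). Kdr, the main receptor of vascular endothelial growth factor (VEGF), stood at 1772 and 1720 CPM (-0.04). Edn1, an endothelin, was low in aerocytes, at 35 and 17 CPM (-1.04), against 395 and 221 CPM in the remaining ECs. Its log2 ratio was -0.31 without members that held 4 or more UMIs of Gpihbp1+Plvap+Kit and -0.40 with no upper limit on genes. Aplnr, the receptor for Apln, stood at 9.07 and 13.1 CPM in aerocytes and 65.6 and 81.7 CPM in the remaining ECs.

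The angiogenic list had a median of -0.12 in aerocytes and in the remaining ECs. Of 23 members, 2 were at least 2-fold higher and none at least 2-fold lower, against 2.18% and 2.54% of all genes tested. The 2 higher members were Inhbb, described above, and the chemokine decoy receptor Ackr3. Ackr3 stood at 9.34 and 27.1 CPM (1.54, but 0.32 with cells thinned to 2000 UMIs before selection). Vegfa, the ligand of Kdr, stood at 26.3 and 33.2 CPM (0.33), the Notch ligand Dll4 at 117 and 122 CPM (0.06) and Col4a2, a basement membrane collagen, at 773 and 878 CPM (0.18). The junction protein Esam stood at 791 and 827 CPM (0.06) and the cytokine Mif at 30.8 and 38.2 CPM (0.31).

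Transcription factors of the endothelium had a median of -0.04 over 24 genes. Of these, 1 was at least 2-fold lower, against 2.54% of all genes tested. This factor was Meis1, a homeobox protein, at 589 and 263 CPM (-1.16, -1.22 to -1.11), with -1.13 in the remaining ECs. Hif1a, the oxygen-sensitive factor, stood at 60.2 and 87.4 CPM (0.54, against 1.07). Junction genes had a median of -0.12 over 21 genes. None was at least 2-fold higher or lower, against 2.18% and 2.54% of all genes tested. Beyond counting error 6 were higher and 11 lower, against 27.5% and 28.4% of all genes tested. Cdh5, the cadherin of endothelial junctions, stood at 2567 and 2531 CPM (-0.02), Cldn5, a claudin of tight junctions, at 2905 and 3818 CPM (0.39), and the scaffold Magi1 at 75.7 and 44 CPM (-0.78). Genes of gas exchange and caveolae had a median of -0.07 over 19 genes. Cavin3, a caveolar coat protein, stood at 203 and 380.1 CPM (0.90), the glucose transporter Slc2a1 at 2.87 and 7.65 CPM (1.42), and Emp2 at 2823 and 2500 CPM (-0.18). Fabp5 was lower (27.5 and 8.86 CPM, -1.63), but 85.9% of its control UMIs lay in the Fabp4-rich members and the core members gave -0.47.

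Matrix and integrin genes had a median of -0.03 over 23 genes, against 0.18 in the remaining ECs. Adamts1, a secreted protease, stood at 10.5 and 25.9 CPM (1.30, and 0.87 in the core members), and the fibronectin receptor subunit Itga5 at 8.94 and 20.1 CPM (1.17, but 0.74 without cells holding markers of other types). Clock and glucocorticoid genes had a median of -0.22 over 18, with Per2 at 14.4 and 5.0 CPM (-1.53) and Nr1d1, a repressor of the clock, at 3.2 and 10.4 CPM (1.70, against 0.07 in the remaining ECs). Cell cycle and growth arrest genes had a median of 0.13 over 17, led by the stress gene Gadd45g at 41.6 and 177 CPM (2.09).

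Most of the 15 lowest genes were low in aerocytes other than the Fabp4-rich ones. For 12 of them over 50% of the control UMIs lay in those 38 members. Fabp4 itself stood at 815 and 175 CPM (log2 ratio -2.22) and at 19.3 and 4.44 CPM in the core members. Cdh13, an adiponectin-binding cadherin, had 399 and 49 UMIs in all aerocytes and 7 and 5 in the core members, and Aqp7, a glycerol channel, had 108 and 6 against 4 and 0. Timp4, an inhibitor of matrix proteases, had 295 and 8 UMIs in all aerocytes against 24 and 1 in the core members. The values of these genes over all aerocytes thus rested on few control cells, and in the remaining ECs Fabp4 gave -2.88.

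**Figure D4:**
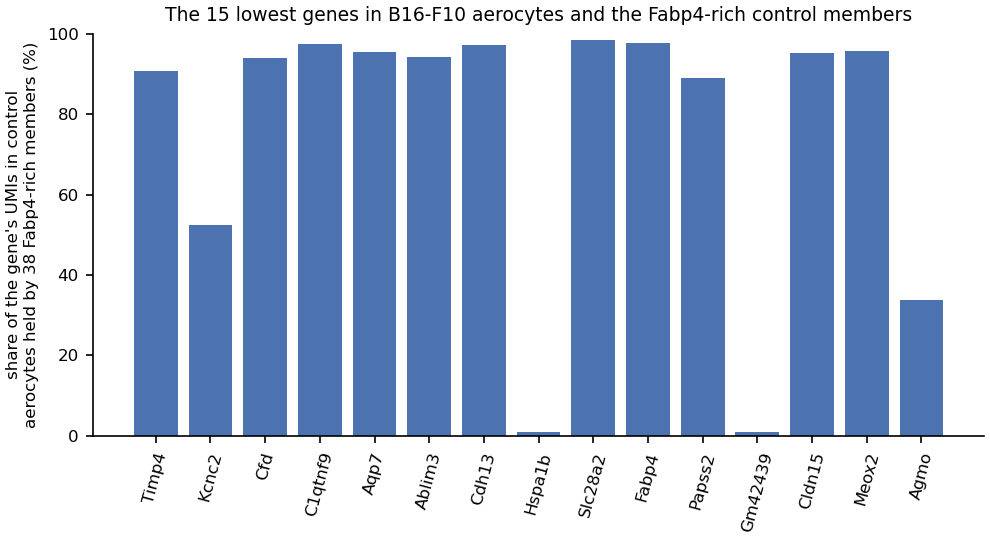
Share of each gene's UMIs in control aerocytes that lay in the 38 Fabp4-rich members (bars), for the 15 genes lowest in B16-F10 aerocytes. Fabp4 (97.6%) and Timp4 (90.9%) sit almost wholly in these cells, Hspa1b (0.892%) and Gm42439 (1.02%) hardly at all.

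Genes that were among the 15 lowest of the core members included Hspa1b, Auts2 and Adgrl3. Sema5a, a guidance cue, stood at 151 and 47.8 CPM over all aerocytes (-1.66), and Gm42439, an RNA of unknown role, at 39.4 and 7.41 CPM (-2.41). Stk32a, a kinase, stood at 13.5 and 2.9 CPM (-2.22), Cpq, a peptidase, at 17.5 and 4.83 CPM (-1.86), and Mctp1, a calcium-binding membrane protein, at 36.1 and 11.3 CPM (-1.68). Mctp1 gave -0.91 with no upper limit on genes per cell, and 44% of its control and 48.6% of its B16-F10 UMIs lay in members poor in the identity genes.

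Several of the 15 highest genes are known from other cells. The pigment cell genes Dct, Tyrp1 and Mlana had 1 and 183, 0 and 71 and 2 and 57 UMIs in control and B16-F10 aerocytes. By the type 2 and the red-cell estimate in turn, free RNA would supply 3.79 or 6.92 of the 14.7 CPM of Dct, 1.38 or 2.51 of the 5.72 CPM of Tyrp1 and 1.5 or 2.74 of the 4.59 CPM of Mlana in the B16-F10 aerocytes. Ptgds, a prostaglandin synthase, stood at 4.43 CPM there, of which free RNA would supply 2.38 or 4.34 CPM. The neutrophil proteins S100a8 and S100a9 had 95.5% and 87.5% of their B16-F10 UMIs in 10 cells. Adamts4, a matrix protease, had 0 and 97 UMIs, 81.4% of the latter in 10 cells. Tubb6, a tubulin, had 17 and 218 UMIs (3.95), 59.6% of the latter in 10 cells.

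The ratios of aerocytes and of the remaining ECs were set side by side gene by gene. The ratio was at least 2-fold larger in aerocytes for 73 of 11470 genes (0.636%) and at least 2-fold smaller for 158 (1.38%). These values come from different cells of the same libraries. The largest excesses included Cyp1a1 (difference of log2 ratios 1.31, 1.24 to 1.39), Nr1d1 (1.63, 1.09 to 2.16), Tgtp2 (1.27, 1.03 to 1.52) and Sema5a (1.54, 1.35 to 1.73), whose log2 ratio was -1.66 in aerocytes and -3.20 in the remaining ECs. On the other side stood Itga4, an integrin of leukocyte adhesion (-2.45, -2.88 to -2.03), at 24.7 and 15.6 CPM in aerocytes and 1.72 and 5.96 CPM in the remaining ECs. The 8 most negative differences also included the myeloid genes Tyrobp, Ctss and Lyz2, which stood at 1.62 and 11.4 CPM, 1.46 and 8.16 CPM and 39.9 and 115 CPM in the remaining ECs. In control aerocytes 96.6% of the UMIs of Tyrobp, 86.7% of those of Ctss and 71.0% of those of Lyz2 lay in 10 cells, and without the 10 richest cells of each library the aerocyte log2 ratios were 0.86, 1.15 and 0.82, above 0 as in the remaining ECs.

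The shares of cells behind these sums were compared at equal depth. Each cell was thinned to 4000 UMIs, which left out 146 control and 14 B16-F10 core members below that depth and kept 1308 and 962. Cyp1a1 had a UMI in 18.9% (16.8 to 21.1%) of control and 79.9% (77.3 to 82.4%) of B16-F10 core members. Core members with a UMI held a median of 4 in both libraries, so the difference lay mainly in how many aerocytes had the transcript. Free RNA alone would have given 0.726 and 2.3%. In the remaining ECs the shares were 17.6% and 35.6%. Without thinning the shares over all aerocytes were 22.7% and 88.1%. Whether control cells with and without the transcript came from different mice cannot be told apart in a pool.

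Other genes differed in the same readout. Socs3 had a UMI in 7.95% and 38.6% of control and B16-F10 core members, where the remaining ECs gave 17.7% and 63.3%. Bcl3 gave 3.9% and 28.8%, Cebpd 25.8% and 63.6%, Junb 31.1% and 67.5% and Igtp 12.5% and 28.6% of core members. Icam1 was widespread in both libraries, at 70.0% and 83.2%, with a mean of 1.53 and 2.79 UMIs per cell. Apln was found in 35.7% and 54.4%, Auts2 in 83.3% and 53% and Hspa1b in 15.3% and 2.6%. Inhbb had a UMI in 0 of 1308 control core members, which allows a share of up to 0.229% by 3 counts of the total and 0.282% by the exact interval, and in 1.66% (0.954 to 2.69%) of B16-F10 ones, against 15.8% (14.9 to 16.8%) of the remaining B16-F10 ECs.

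The summed UMIs of whole lists were read in the same thinned cells. The rCap list had a median of 38 and 51 UMIs in control and B16-F10 core members, with lower quartiles of 32 and 43 and upper quartiles of 45 and 64. The remaining ECs gave medians of 40 and 71. Immediate early genes had medians of 11 and 18, interferon genes of 9 and 11 and aerocyte identity genes of 65 and 59 in the core members. The middle ranges of the rCap list thus overlapped between the libraries in aerocytes.

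**Figure D5:**
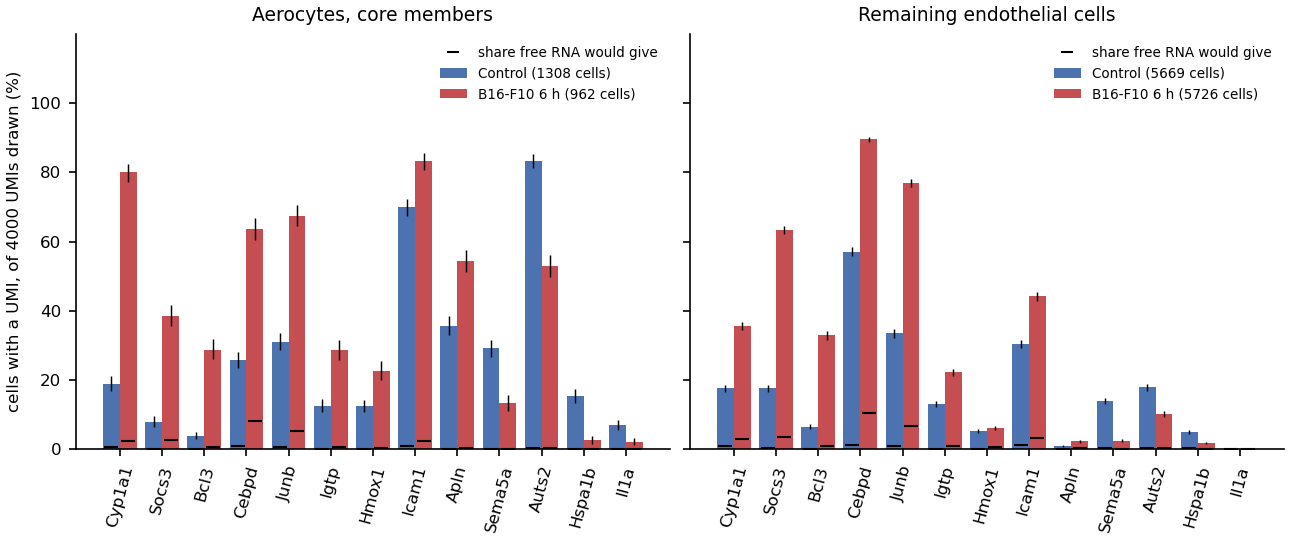
Percent of cells with at least 1 UMI of each gene after thinning to 4000 UMIs, in aerocyte core members and in the remaining ECs (bars, control in blue and B16-F10 in red), with exact 95% intervals as lines and a black dash for the share that free RNA alone would give. Cyp1a1 is found in 18.9% and 79.9% of control and B16-F10 core members and in 17.6% and 35.6% of the remaining ECs.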

How the data were processed

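The authors deposited raw UMI counts per gene and barcode for 2 libraries made with Chromium 3′ chemistry. Per the labels' processing notes they used Cell Ranger 7.2.0, Seurat 4.4.0 and mm10, and whether introns were counted is not given in the sources used here. Mice of a group were pooled, so n = 1 per group and no p-value was computed.

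From these counts, UMIs were summed over the members of each library, scaled to CPM, and compared as a log2 ratio without pseudocount, with an exact binomial 95% interval of counting error and a floor of 3 counts against 0. Genes needed 50 UMIs over both sums, and a call was a 2-fold difference. Shares have Clopper-Pearson intervals and their difference a Newcombe interval. Free RNA was estimated from barcodes of 1 to 100 UMIs from type 2 and from red-cell genes, the larger estimate was used, and it was left in place, and doublets called by Scrublet (scanpy 1.11.5, 0.8% per 1000 cells) were kept except in an alternative. Scripts used Python 3.11.15 and scipy 1.17.1 and were tested on simulated counts. Positions came from GENCODE on GRCm38.

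The members and lists were chosen with earlier results of these data known. Genes named were the 6 markers, the 15 highest and 15 lowest, the 8 largest differences from the remaining ECs in each direction, 4 per list, genes the study follows and the 20 highest over the remaining ECs. The lowest 8 of that last comparison and the 15 highest and lowest of the core members were added later. Ahr, Cdh5, Cldn5, Cyp1b1, Emp2, Ftl1, Gpihbp1, Icam1, Ifi206, Ifit1, Irf7, Junb, Kdr, Klf10, Nfkb1, Nfkb2, Nqo1, Plau, Plaur, Plvap, Ramp2, Relb, Socs2, Thbd, Tiparp, Tnfaip3 and Usp18 were named after their values were seen. The core members, the sums without a gene's 10 richest cells and the alternatives for the counts of differing ratios were also added after seeing the data. Some genes that these rules name are not reported here.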

Additional observations from a re-analysis of the deposited data

Results flagged for a closer look

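For 4 genes the intervals of the aerocytes and of the remaining ECs lay on opposite sides of 0, each wholly 0.5 or more from it. Other genes, such as Itga4 and Jak2, had ratios of opposite sign but did not meet this limit. In each case the difference was not tested, since each group is 1 library. Ccl6, a myeloid chemokine, had a log2 ratio of -1.42 in aerocytes (123 control and 38 B16-F10 UMIs) and of 2.56 in the remaining ECs. Ear2, an eosinophil-associated ribonuclease, gave -1.76 (41 and 10 UMIs) and 1.38, with 87.8% of its control UMIs in 10 aerocytes. Its aerocyte ratio was -0.12 without cells holding markers of other types and -0.46 without its 10 richest cells. Lyz2, the lysozyme of myeloid cells, gave -0.76 (500 and 244 UMIs) and 1.53, with 71.0% of its control UMIs in 10 aerocytes. The aerocyte ratio of Lyz2 was above 0 with cells chosen by 8 other aerocyte genes (1.95), without cells holding markers of other types (1.04), without its 10 richest cells (0.82) and with no upper limit on genes per cell (0.12). Hbb-bt, a beta globin, gave -0.61 and 0.59, and the alternatives were not run for it. The Ccl6 ratio was 2.78 in aerocytes once its 10 richest cells in each library were left out.

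The limit of 5000 genes leaves out cells that the comparisons do not use. Among ECs above it, 47.71% (42.2 to 53.3%) of 327 in the control and 41.39% (37.4 to 45.4%) of 604 in the B16-F10 library met the gene rule for aerocytes, above their shares among ECs within the limit. The rule is a fixed count of UMIs, so deeper cells meet it more easily. Such cells held 4949 and 4534 CPM of general capillary markers, against 3100 and 2859 CPM in the members. Their identity list summed to 10980 and 8975 CPM, against 15430 and 13940 CPM in the members. Pmel, a melanocyte gene, stood at 52.7 CPM in such B16-F10 cells, against 7.33 CPM in the members.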

How the results depend on the processing

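Of 145 recomputed values for the main comparisons, 126 kept their direction and stayed close to the value reported, and the aerocyte share differed in the same direction under every selection tried. The count of genes at least 2-fold higher in aerocytes, 250, became 566 with no upper limit on genes per cell, 411 with cells chosen by 8 other aerocyte genes, 143 with cells thinned to 2000 UMIs before selection, and 629 with a limit of 10 UMIs per gene. That of genes at least 2-fold lower in aerocytes, 292, became 148 and 157 with cells thinned after and before selection, 877 with a limit of 10 UMIs and 153 with one of 100. With no upper limit on genes per cell the median of the aerocyte identity list was -0.30. The rCap median of 1.19 became 1.00 without cells holding markers of other types, 0.98 without members holding 4 or more UMIs of Gpihbp1+Plvap+Kit, 0.97 and 0.85 with cells thinned after and before selection, 1.05 with a limit of 100 UMIs and 1.01 in the core members, a choice made after seeing the data. The adhesion and NF-kB median became 1.75 with a limit of 10 UMIs. The identity list over the remaining ECs in control, 3.99, became 3.76 and 3.49 with cells thinned after and before selection. With cells chosen by the 8 other genes, an alternative added after seeing the data for this count, 177 genes rather than 73 had a ratio at least 2-fold larger in aerocytes. Of 2338 recomputed log2 ratios of 147 named genes, 62 values of 28 genes changed sign, 20 of them in 13 genes with a 2-fold difference. Among the latter, without members holding 4 or more UMIs of Gpihbp1+Plvap+Kit these were C1qtnf9 (0.43), Aqp7 (0.01), Cdh13 (0.79), Fabp4 (0.00), Rbp7 (0.75) and Hspg2 (0.64), and in the core members Ablim3 (0.51) and Hspg2 (0.38). With the 8 other genes they were Slc28a2 (0.83), Papss2 (0.08), Ccl6 (0.55), Hspg2 (0.37) and Cdkn1c (0.24), and with no upper limit on genes Ccl6 (0.32) and Cdkn1c (0.15). Ccl6 became 1.42 without cells holding markers of other types and 2.78 without its 10 richest cells. Thinning before selection gave -0.90 for Scgb3a1 and -0.05 for Nid2, and thinning after selection -0.45 for Nid2. The other 15 genes, none with a 2-fold difference as reported, were Lyz2, Tyrobp, Ctss, Gpnmb, Vegfc, Vegfa, Adamts9, Adgrg6, Aplnr, Dll4, Jak2, Rprml, Cytl1, Pcdh7 and Myof, whose directions therefore depend on the selection. Thinning and the UMI limits change by construction how many genes are measured, and the cause of the other shifts was not tested. Of 91 named genes with a 2-fold difference, 30 fell below it under at least 1 alternative. No paired analysis was possible because the groups hold 1 library each, which also means that no replicate could be left out. Differences between mice, litters or preparation days were not measured.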
